A study of Mus musculus with 4 samples.

Results

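Wnt ligands, their Frizzled and Lrp receptors, and the genes that carry, restrain or read out the signal were compared between neurospheres labelled E2F4 knockout and E2F4 wild type. Neurospheres are floating cultures of neural stem and progenitor cells, and E2F4 is a transcription factor that acts mostly as a repressor of cell-cycle genes. Members were the probe sets with 1 gene symbol on the MOE430A and MOE430B arrays whose symbol begins with Wnt, Fzd, Sfrp, Dkk or Dvl and a digit, or is one of a fixed set of receptors, scaffold, enzyme and transcription factor genes of the pathway. This gave 116 probe sets of 55 genes, out of 35041 probe sets with 1 symbol. One further gene of the rule, Tcf7, had no such probe set, so its expression was not analysed here. The rule used symbols only and no measured value.

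The knockout group was 1 RNA sample from E2F4 knockout neurospheres and the wild-type group 1 RNA sample from E2F4 wild type neurospheres, both cultured from the forebrain at the embryonic stage E12.5 with the ventral telencephalon, the lower forebrain, given as source. Each RNA was run on 1 MOE430A and 1 MOE430B array. The kind of deletion, the strain and the number of embryos behind each culture are not given in the sources used here. Since each genotype had 1 sample, there is no test between genotypes, no value carries an error between cultures, and a difference between these samples is not shown to be a difference between genotypes.

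Wnt proteins are secreted, lipid-modified ligands that bind a Frizzled receptor together with the co-receptor Lrp5 or Lrp6. In the canonical branch this stops a complex of Axin, Apc and the kinase Gsk3b from marking beta-catenin for destruction. Beta-catenin then enters the nucleus and turns transcription factors of the LEF/TCF family from repressors into activators. In the embryonic forebrain Wnt genes are best known from the dorsal midline and cortex, where they promote progenitor growth and dorsal identity.

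Median signals were 736 in the knockout and 735 in the wild type on MOE430A, and 942 and 941 on MOE430B. The deposited signals had been scaled to a common level on every array, so close medians do not show that the samples were alike. Gapdh signal at the 3' end over that at the 5' end, which reflects how intact the RNA was, stood at 0.898 in the knockout and 0.862 in the wild type on MOE430A, and 0.799 and 0.948 on MOE430B. The single E2f4 probe set read 1535 in the sample labelled knockout and 1812 in the wild type. Its place relative to the deleted part is not given, so it does not check the label. Xist, the RNA that silences an X chromosome in female cells, read 1178 in the knockout and 8980 in the wild type on its brightest probe set, so the samples also differed in a gene that marks sex. Whether sex moved any Wnt gene was not tested.

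A probe set was called measured where both arrays reached a floor, the mean of the arrays' median signals, which was 735 on MOE430A and 942 on MOE430B. Log2 ratios set the knockout over the wild type, were centred on the median of each design, and were averaged over the measured probe sets of a gene. Of the 55 genes, 30 were measured, 8 reached the floor in 1 sample only and 17 in neither. Over all genes with a symbol of their own, 10174 of 18193 were measured, a share close to that of the members. Ligands were the part of the pathway most often below the floor, 11 of 19 genes, while all 3 LEF/TCF genes and 7 of 9 cytoplasmic components were measured. The 19 ligands had 32 probe sets and the 9 cytoplasmic components 26, so a ligand had fewer chances to reach the floor. The signal of a bulk culture cannot tell fewer cells of a type from less RNA per cell.

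**Figure D1:**
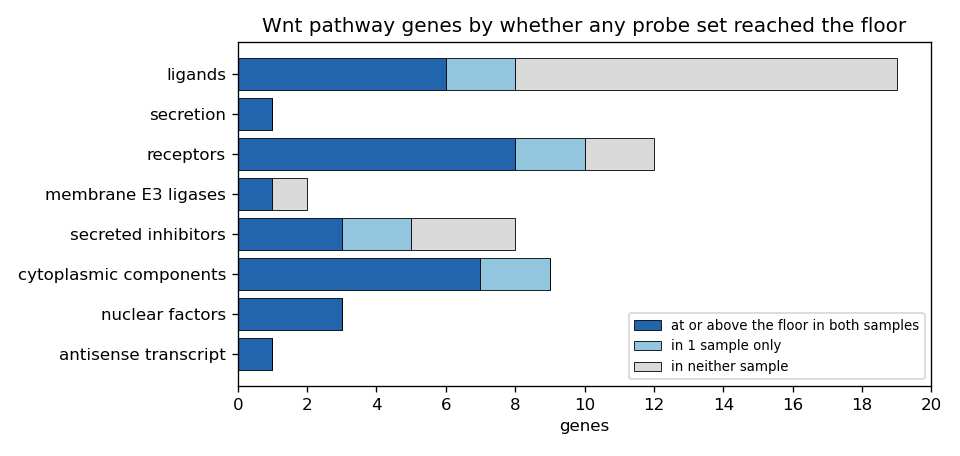
Number of Wnt pathway genes (x axis) in each role (y axis), by whether at least 1 probe set reached the floor in both samples, in 1 sample only or in neither. The ligand bar has 11 of its 19 genes in neither sample, and the nuclear factor bar has all 3 genes in both.

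Differences between knockout and wild type were small across the measured genes of the pathway. The 30 measured genes had a median log2 ratio of 0.08, with 20 higher and 10 lower in the knockout, against a median of -0.001 over all 10174 measured genes, of which 49.8% were higher. None of the 30 was 2-fold different by its gene mean, where 1.01% of all measured genes were. Genes that reached the floor in 1 sample only are not in this count. Among them was Fzd6, with 1 of 3 probe sets at least 2.53-fold lower in the knockout. Lef1 and Tcf7l2, both transcription factors of the LEF/TCF family, were higher in the knockout by 1.5-fold or more, and Sfrp4, a secreted inhibitor, was lower by 1.5-fold or more. These 3 of 30 genes stand beside 7.38% of all measured genes at that size. All 3 rested on 1 measured probe set, which makes them 3 of the 15 such members, against 10.7% of all genes with 1 measured probe set. Counted by probe set, 7 of 56 measured ones of the members were 1.5-fold different, against 9.47% of all.

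**Figure D2:**
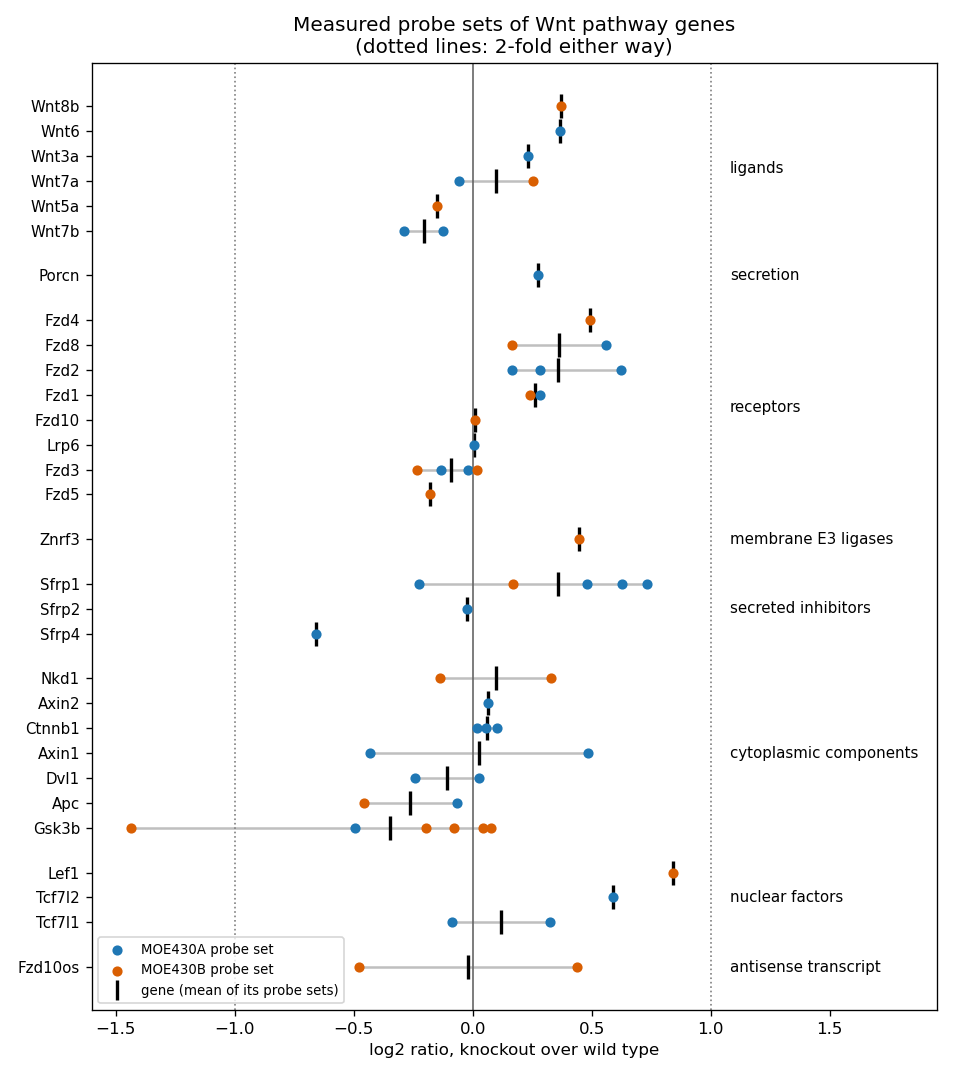
Log2 ratio of knockout over wild type (x axis) for each measured gene (y axis), grouped by role. Points are measured probe sets, coloured by array design, grey lines join those of a gene, black ticks are gene means and dotted lines mark 2-fold. Lef1 lies farthest right at 0.84 and Sfrp4 farthest left of the gene means at -0.66. A single probe set of Gsk3b lies far from the rest of its gene, and the 2 of Axin1 lie on opposite sides of 0.

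**Figure D3:**
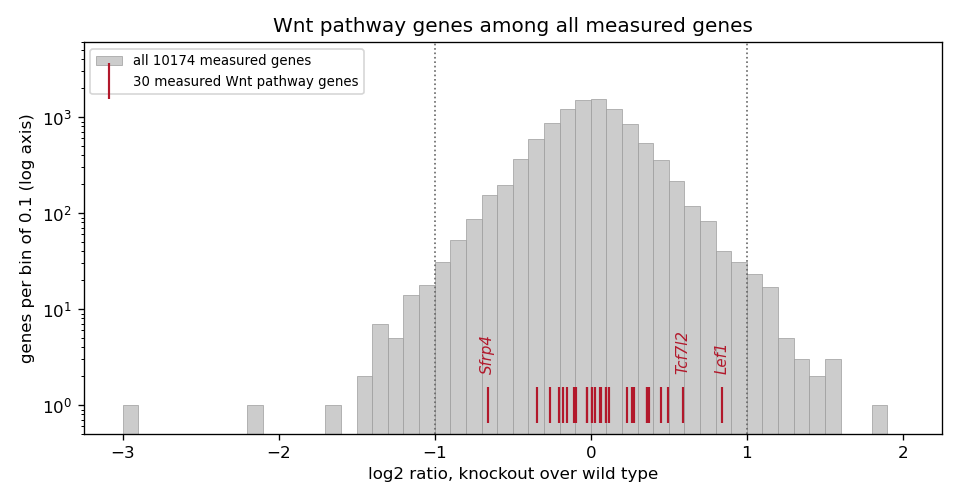
Number of genes per bin of log2 ratio (x axis, knockout over wild type) on a log axis for all 10174 measured genes, with a red tick for each of the 30 measured Wnt pathway genes. The red ticks run from -0.66 to 0.84, inside the 2-fold lines.

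A spread that these arrays do show is the disagreement between probe sets of a gene, which need not be measurement error alone. Its pooled SD was 0.33 on the log2 scale over 3957 genes with more than 1 measured probe set, and 0.38 over the 15 such members. Lef1, at 0.84, Sfrp4, at -0.66, and Tcf7l2, at 0.59, were the members farther from 0 than 1.5 times the SD over all genes, and most others lay within 1 SD. The cut of 1.5 was not a planned setting, and Fzd4, at 0.49, lay just under it. The SD is between single probe sets, so genes with 1 measured probe set, as these 3 are, pass it more easily than means of several. It does not measure differences between cultures. All measured probe sets of a gene lay on one side of 0 for 6 of these 15 members, against 42.2% of all genes with more than 1. Of 7 members measured on both designs, 6 had the same sign on both, where 52.4% of all such genes did. That share is close to an even split, so the sign of a gene often differed between the designs. Gsk3b, 1 of the 6, stood at -0.32 on MOE430B mainly through 1 probe set at -1.43. The 6 of 7 are a description and were not tested.

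The nuclear end of the pathway held the members farthest on the higher side. Lef1 encodes a LEF/TCF factor that is also a reported direct target of the pathway. Its measured probe set, on MOE430B, read 2966 in the knockout and 1657 in the wild type, which is 1.79-fold higher, and 2.16% of all measured genes, or 3.35% of those with 1 measured probe set, lay as far from 0. Its other probe set, on MOE430A, read 465 in the knockout and 82.1 in the wild type, both below the floor. With no floor the mean of both became 1.67, and with a pseudocount equal to the median signal it was 0.57. Both probe sets were higher in the knockout, but the sizes rest on 1 bright and 1 dim probe set.

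Tcf7l2, a LEF/TCF factor active in caudal forebrain and gut, had 4 probe sets, all on MOE430A. The measured one read 1198 in the knockout and 797 in the wild type, a log2 ratio of 0.59, with 7.19% of all measured genes, or 10.5% of those with 1 measured probe set, as far from 0. Another reached the floor in knockout only, at 1005 against 383 in wild type, and was at least 1.37-fold higher. The remaining pair read 449 and 196 in the knockout against 305 and 80.4 in the wild type, below the floor. All 4 were higher in the knockout, and the wild-type signal of the measured probe set was close to the floor. The value was 0.99 with the floor at the 30th percentile and 0.33 with the pseudocount, and with the floor at the 70th percentile neither Tcf7l2 nor Lef1 was measured. Tcf7l1, which acts mostly as a repressor, was at 0.12 ± 0.29 (SD between 2 probe sets).

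**Figure D4:**
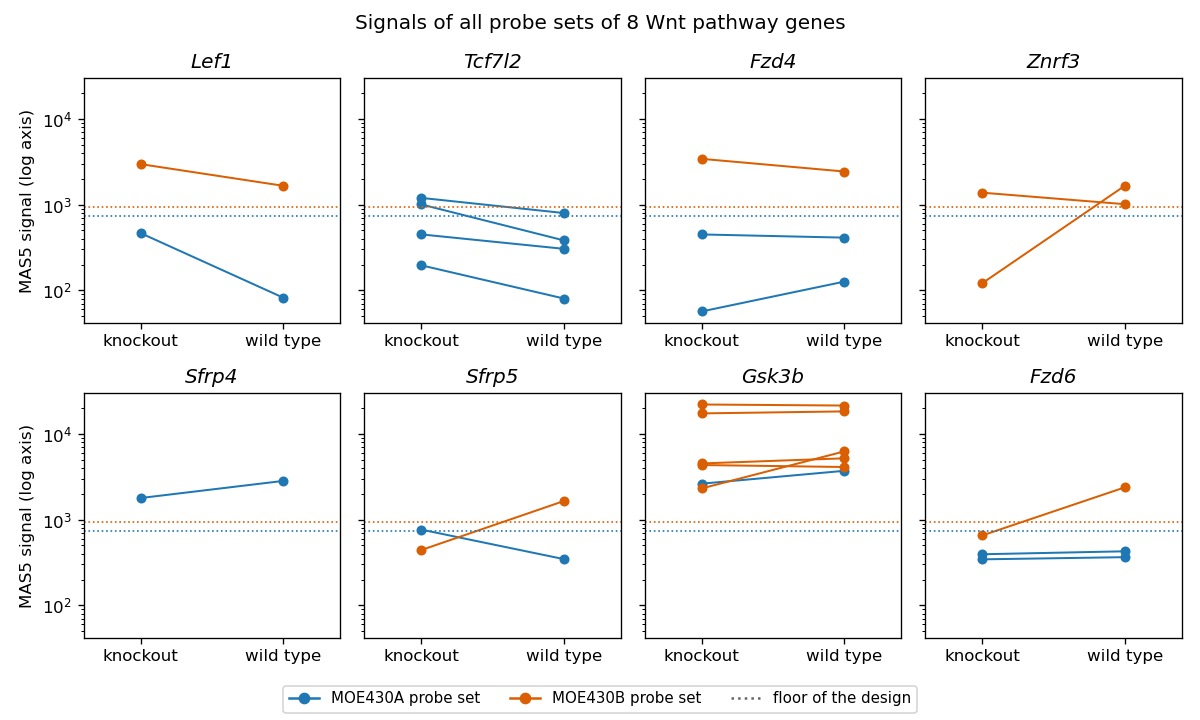
MAS5 signal (log axis) of every probe set of 8 Wnt pathway genes in the knockout (left point) and wild-type (right point) sample, 1 line per probe set, coloured by design, with dotted lines at each design's floor. All lines of Lef1 and Tcf7l2 run down to the wild type, those of Znrf3 and Sfrp5 cross, and 1 of the 6 lines of Gsk3b stands apart.

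The windows before the annotated gene starts were searched for the letters that E2F and LEF/TCF factors are known to bind, since E2F4 is the gene named in the labels and Lef1 and Tcf7l2 were the members farthest on the higher side. An E2F form was TTCCCGC or TTCGCGC or TTGGCGC or TTGCCGC. A TCF form was CTTTGAA or CTTTGAT or CTTTGTA or CTTTGTT. Forms were sought on both strands of the 250 bases before each start. Windows came from RefSeq on the build GRCm38.p6 and covered 37 genes of the rule, counting Tcf7, which has no signal here. An E2F form was present in 3 of 47 windows of these genes, or 6.38%, against 7.89% of all 32851 windows. A TCF form was present in 6 of 47, or 12.8%, against 14.8% of all windows. Neither share was above that of all windows, and a match is a description of letters, not a site. Of measured members, Fzd4 held an E2F form and Lef1 and Tcf7l2 a TCF form, each in 1 window, and these 3 windows are shown, 5' to 3' on the plus strand, with the matched letters in capitals. The Lef1 and Tcf7l2 windows are the last of 4 and of 2 annotated starts, and the other windows of these genes held neither form.
Lef1, chr3:131156044-131156293: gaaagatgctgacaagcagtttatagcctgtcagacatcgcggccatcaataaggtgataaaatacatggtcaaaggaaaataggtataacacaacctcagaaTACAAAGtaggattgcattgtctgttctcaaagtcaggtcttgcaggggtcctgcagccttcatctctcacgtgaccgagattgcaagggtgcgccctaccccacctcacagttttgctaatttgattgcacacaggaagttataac
Tcf7l2, chr19:55895071-55895320: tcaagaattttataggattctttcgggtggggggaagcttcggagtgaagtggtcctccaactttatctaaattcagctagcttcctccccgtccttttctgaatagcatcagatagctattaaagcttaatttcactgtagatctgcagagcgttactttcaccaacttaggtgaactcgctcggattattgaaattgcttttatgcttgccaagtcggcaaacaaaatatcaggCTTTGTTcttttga
Fzd4, chr7:89404116-89404365: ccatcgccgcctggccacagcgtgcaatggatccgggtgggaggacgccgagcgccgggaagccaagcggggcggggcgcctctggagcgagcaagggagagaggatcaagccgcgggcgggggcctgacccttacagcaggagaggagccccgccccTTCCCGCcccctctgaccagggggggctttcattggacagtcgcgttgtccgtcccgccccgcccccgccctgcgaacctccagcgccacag
The Lef1 match is CTTTGTA on the opposite strand, starting 147 bases before the annotated start. The Tcf7l2 match is CTTTGTT, starting 14 bases before it, and the Fzd4 match is TTCCCGC, 92 bases before it.

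Among the ligands, 6 of 19 were measured and had a median log2 ratio of 0.17, with 4 higher and 2 lower and none 1.5-fold different. The median was -0.03 with the floor at the 70th percentile, which left 4 ligands. Wnt7a and Wnt7b, ligands of the embryonic forebrain that act on neural progenitors and on brain vessels, did not lie far from 0. Wnt7b read 2322 and 5512 in the knockout and 2536 and 6740 in the wild type, a log2 ratio of -0.21 ± 0.12 (SD between 2 probe sets). Wnt7a read 1762 on MOE430A and 5049 on MOE430B in the knockout, against 1835 and 4239 in the wild type. Its ratios were -0.06 and 0.25, so the designs did not share a sign. The remaining Wnt7a probe set did not reach the floor in either sample, at 96.8 in the knockout and 630 in the wild type, and with no floor it took the gene to -0.84.

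Wnt3a and Wnt8b are known from the cortical hem, the dorsal midline source of the forebrain. Their measured probe sets were higher in the knockout by less than 1.5-fold, which does not speak for hem ligands as a class. Wnt3a, which drives growth of the hippocampal field, read 957 in the knockout and 817 in the wild type, a log2 ratio of 0.23 close to the floor. Wnt8b, a marker of the same region, read 3226 in the knockout and 2493 in the wild type on its measured probe set, a log2 ratio of 0.37. Its other 2 probe sets were below the floor, and Wnt8b was at -0.14 with no floor. Wnt2b, another hem ligand, reached the floor in knockout only, at 931 against 503 in the wild type, and was at least 1.27-fold higher. Wnt6 had a measured probe set at 0.37 and a second one that read 1479 in the knockout and 572 in the wild type, at least 1.57-fold higher. Both Wnt6 probe sets were higher in the knockout, but the second ends in _x_at, a class that can match several transcripts. Wnt5a, the main ligand of the non-canonical branch and also known from the hem, was lower in the knockout, at -0.15 on 1 of 4 probe sets. Wnt4 reached the floor in wild type only, on 1 of 2 probe sets, at 609 in the knockout and 1389 in the wild type, or at least 1.48-fold lower. Both samples were below the floor for Wnt1, Wnt2, Wnt3, Wnt5b, Wnt8a, Wnt9a, Wnt9b, Wnt10a, Wnt10b, Wnt11 and Wnt16, so nothing is said of their direction. Porcn, the enzyme that attaches the lipid to Wnt proteins, was at 0.28 on 1 probe set.

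Of the 12 receptor genes, 8 were measured, with a median of 0.14 and 6 higher. Fzd4, a receptor known from vessel growth, had 1 measured probe set, which read 3416 in the knockout and 2431 in the wild type, a log2 ratio of 0.49. Its other probe sets were below the floor, at 449 and 56.8 in the knockout against 412 and 127 in the wild type. The direction of Fzd4 therefore followed the bright probe set, and with no floor the gene stood at -0.19. Fzd8, Fzd2 and Fzd1, receptors of forebrain progenitors, were higher on every measured probe set. They stood at 0.36 ± 0.28 (SD between 2 probe sets), 0.36 ± 0.24 (SD between 3) and 0.26 ± 0.03 (SD between 2), and Fzd1 and Fzd8 were higher on both designs. Each of the 3 was nevertheless less than 1.5-fold different.

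Fzd3, a receptor needed for axon tracts, was at -0.09 ± 0.11 (SD between 4 probe sets), and Fzd5 was at -0.18. Fzd10 at 0.01 and the co-receptor Lrp6 at 0.006 were the receptors nearest to 0, each on 1 measured probe set. The other Lrp6 probe set read 314 in the knockout and 81.7 in the wild type, below the floor, and with no floor Lrp6 stood at 0.96. Fzd6, which acts in tissue polarity, reached the floor in wild type only, on 1 of 3 probe sets, with a signal of 654 in the knockout and 2380 in the wild type. This was at least 2.53-fold lower, the largest such bound among the members, while its other probe sets read 344 and 394 in the knockout and 365 and 427 in the wild type. Fzd9 reached the floor in knockout only, at 872 against 469 in the wild type, and Fzd7 and Lrp5 were below it in both. Over the array designs, 10.8% of probe sets with 1 symbol were above the floor in 1 sample only, as were 13 of the 116 member probe sets, 7 in the knockout and 6 in the wild type. A bound of 1.5-fold or more was reached by 4 of these 13, against 24.4% of all such probe sets. Fzd10os, a transcript from the strand opposite Fzd10 that the symbol rule takes in, was at -0.02 from probe sets at -0.48 and 0.44.

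Znrf3 and Rnf43 are membrane ubiquitin ligases that remove Frizzled receptors and are themselves pathway targets. Znrf3 had 2 probe sets, both on MOE430B, that went opposite ways. The measured one read 1377 in the knockout and 1011 in the wild type, a log2 ratio of 0.45, and the other read 121 in the knockout and 1663 in the wild type, at least 1.77-fold lower. With no floor the gene stood at -1.66 and with the pseudocount at -0.52, so its direction depends on the floor. Rnf43 was below the floor in both samples.

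Secreted inhibitors differed from each other in sign. Of the Sfrp and Dkk genes, 3 of 8 were measured, with a median of -0.03, against 0.02 with no floor, where all 8 counted. Sfrp4, which binds Wnt proteins, read 1785 in the knockout and 2826 in the wild type on its single probe set, a log2 ratio of -0.66, or 1.58-fold lower, and 5.08% of all measured genes, or 7.56% of those with 1 measured probe set, lay as far from 0. Sfrp1, an inhibitor made by forebrain progenitors, was at 0.36 ± 0.39 (SD between 5 probe sets), with 4 of the 5 higher. The exception ends in _x_at and was at -0.22. Sfrp2 was at -0.03 on 1 probe set. Sfrp5 was above the floor in 1 sample only on each design, in opposite samples. On MOE430A it read 765 in the knockout and 346 in the wild type, and on MOE430B 441 in the knockout and 1646 in the wild type, at least 1.75-fold lower. Dkk3 was at 737 in the knockout against 578 in the wild type on its brighter probe set, just reaching the floor, and Dkk1, Dkk2 and Dkk4, which block Lrp co-receptors or in part activate them, were below it in both.

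The cytoplasmic components had a median of 0.03, with 4 of 7 measured genes higher and none 1.5-fold different. Ctnnb1, the gene of beta-catenin, was close to 0 on every probe set. Its 3 probe sets read 27440, 14790 and 15565 in the knockout and 27170, 13814 and 15011 in the wild type, a log2 ratio of 0.06 ± 0.04 (SD between 3 probe sets). Axin2, a scaffold and the most widely used readout of canonical signalling, read 2026 in the knockout and 1939 in the wild type, a log2 ratio of 0.07, and its other probe set read 240 and 256, below the floor. Nkd1, a feedback inhibitor, was at 0.10 ± 0.33 (SD between 2 probe sets). Axin1, the constitutive scaffold, had probe sets at 0.48 and -0.43.

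Gsk3b, the kinase of the destruction complex, stood at -0.35 ± 0.57 (SD between 6 probe sets), a mean set by 1 of them. That probe set, on MOE430B, read 2311 in the knockout and 6247 in the wild type, and it was the 1 measured member probe set of 56 with a 2-fold difference, where 1.42% of all measured probe sets had one. The other 4 on MOE430B read 4519, 21993, 4329 and 17317 in the knockout and 5186, 21382, 4106 and 18276 in the wild type, all between -0.20 and 0.08. The one on MOE430A read 2624 in the knockout and 3707 in the wild type, at -0.50. The brightest probe set alone gave 0.04. Apc, a scaffold of the same complex, was at -0.26 ± 0.28 (SD between 2 probe sets) with 2 further probe sets below the floor. Dvl1, which relays the receptor signal, was at -0.11 ± 0.19 (SD between 2). Dvl2 reached the floor in wild type only, on 1 of 2 probe sets, at 280 in the knockout and 973 in the wild type. Its other probe set read 527 in the knockout and 492 in the wild type, below the floor. Dvl3 reached it in knockout only, at 835 against 348 in the wild type. Both genes had a bound under 1.5-fold.

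Further genes of the pathway were read from a list of 104 that holds no member, of which 71 were measured. Their median was 0.001, with 36 higher and 35 lower. In the knockout 3 were higher by 1.5-fold or more, where 3.52% of all measured genes were, and 0 were 1.5-fold lower, where 3.86% were. The 3 were Celsr1, Dmrta2 and Tnfrsf19. Celsr1, a cadherin of tissue polarity, read 3085 in the knockout and 1562 in the wild type, a log2 ratio of 0.98. Among the other membrane genes Kremen1, a Dkk receptor, was at -0.31 and Tmem67 at -0.29. The extracellular genes lay between -0.10 for Cthrc1 and 0.17 for Gpc4, with Apcdd1 at -0.08, and 13 of 17 were not measured, Wls and the Rspo genes among them. Cytoplasmic genes were led by Ctnnd1, the gene of p120 catenin, at 0.50 with 3 of 3 probe sets higher, Macf1 at -0.50 with 3 of 3 lower, and Dact3 at 0.42. Nuclear genes lay between -0.24 and 0.35, led by the beta-catenin partners Bcl9 and Bcl9l at 0.35 and 0.34 and by Pygo2 at -0.24.

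Genes reported as targets of canonical signalling in other tissues or in the embryo had a median of 0.11, with 14 of 18 measured genes higher. The median was 0.09, with 10 of 14 higher, once the members Axin2, Lef1, Nkd1 and Znrf3 were left out. Of all measured genes 49.8% were higher, and the target list was chosen with earlier results of these data known. Dmrta2, a dorsal forebrain transcription factor that also stands on the list of dorsal markers, read 16234 in the knockout and 8664 in the wild type, a log2 ratio of 0.91. Emx2, at 0.31, stands on both lists as well. Tnfrsf19, a receptor of the TNF family, had a measured probe set that read 1788 in the knockout and 961 in the wild type, a log2 ratio of 0.90. Its other probe sets reached the floor in knockout only, at 1337 and 955 against 398 and 232 in the wild type, so all 3 were higher in the knockout. Jag1, a Notch ligand, was at -0.50 on its measured probe set, while 2 dimmer ones were higher in the knockout. The general targets Ccnd1, at 0.007, and Lgr5, at 0.06, were close to 0, as was Axin2, and Myc, Sp5 and Notum were not measured.

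Markers of regional identity differed between the samples. All 12 progenitor markers were measured, with a median of 0.04, 8 higher and 4 lower, and a summed signal of 174353 in the knockout against 166442 in the wild type. Of these, 2 were 1.5-fold lower in the knockout, Hes5 at -0.86 and Sox1 at -0.61, each lower on both measured probe sets. None was 1.5-fold higher. Dorsal telencephalic markers had a median of 0.51, with 9 of 12 measured genes higher and a summed signal of 75801 in the knockout against 53944 in the wild type. Ventral markers had a median of -0.52, with 9 of 9 measured genes lower and a summed signal of 26759 in the knockout against 38869 in the wild type, while Dlx6, Gsx1, Lhx6 and Olig2 were not measured. Neuron markers had a median of -0.22, with 11 of 12 lower and a summed signal of 186365 against 216292. Dorsal markers were thus measured in cultures whose labels give the ventral telencephalon. The part of regional makeup in the values of Lef1, Dmrta2, Wnt8b and the other dorsally known genes was not tested. Of cortical hem and choroid plexus markers 3 of 9 were measured, with a summed signal of 7323 in the knockout against 6998 in the wild type. Of the others, Lmx1a and Ttr were below the floor in both samples. Otx2, at 1170 in the knockout against 726 in the wild type, and Folr1, at 957 against 530, reached the floor in knockout only. Bmp7, at 608 in the knockout against 970 in the wild type, and Msx1, at 726 and 713 against 741 and 1000, did so in wild type only. Endothelial markers, of interest for Fzd4, had 4 of 9 measured, a median of 0.01 and a summed signal of 5290 against 5055, with Pecam1 and Cdh5 not measured. Mesenchymal and pericyte markers had 3 of 10 measured, all higher, with a median of 0.29 and a summed signal of 5004 in the knockout against 4224 in the wild type. Red cell markers had 3 of 6 measured, the embryonic globins Hbb-y, Hbb-bh1 and Hba-x, all lower, with a median of -0.51 and a summed signal of 214562 in the knockout against 278732 in the wild type. Of 6 microglia markers only Csf1r was measured, at -0.25. The part of these cell types in the results was not tested.

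**Figure D5:**
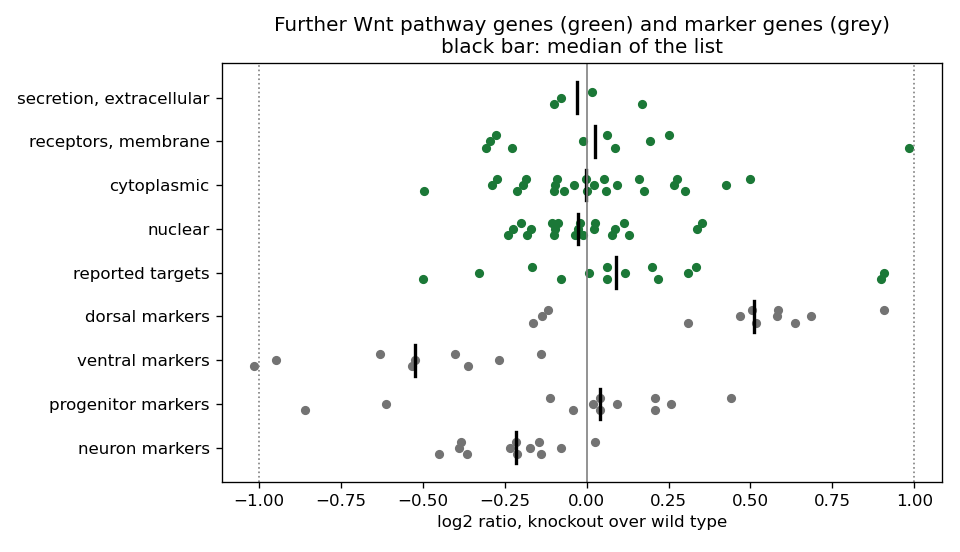
Log2 ratio of knockout over wild type (x axis) of each measured gene of the further pathway lists (green, 5 rows, members left out of the targets) and of 4 marker lists (grey), with a black bar at each median. The dorsal markers centre on 0.51 and the ventral ones on -0.52, while the medians of the green rows lie between -0.03 and 0.09.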

How the data were processed

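Total RNA of 1 knockout and 1 wild-type neurosphere culture was made into biotinylated cRNA without amplification, per the labels' protocols, and each RNA was run on an Affymetrix MOE430A and an MOE430B array. The deposited values are MAS5 signal intensity on a linear scale, per the submitters' processing notes, with no version and no detection calls in the sources used here. The authors' tables had been scaled, since the mean after trimming 2% at each end was 1480 to 1482 on every array. Knockout and wild-type arrays of a design shared a hybridisation day, per the file headers, and the 2 designs had different days.

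Of 22690 and 22575 probe sets, 64 controls each were left out, and 10402 and 9530 were measured. Centring moved log2 ratios by -0.003 on MOE430A and -0.001 on MOE430B. A bound is the brighter signal over the floor. Symbols came from the platform annotation, and all 55 member identifiers were found in a RefSeq table of GRCm38.p6. Signals were printed for members at 0.4 or more in size, with a 2-fold probe set or a 1.5-fold bound, and for Wnt7a, Wnt7b, Ctnnb1 and Axin2. Other signals, such as those of Wnt2b, Wnt3a, Wnt4, Wnt8b, Fzd9, Dkk3, Dvl2 and Dvl3, were added after their values were seen. The members, lists and settings were chosen with earlier results of these data known. The calculation was tested on simulated arrays. Python 3.11.15, numpy 2.4.6, pandas 2.3.3, statsmodels 0.14.6 and matplotlib 3.10.9 were used. The number of arrays limits the precision.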

Additional observations from a re-analysis of the deposited data

How the results depend on the processing

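Of 11 alternatives, no centring, quantile normalization and lowess with a span of 0.3 kept every group median and count close to the reported one. No paired analysis was possible because each genotype had 1 sample on each design. The median of all measured members, 0.0815, was 0.00425 with no floor, 0.00791 with a pseudocount and 0.20 with the brightest probe set, and 0.10 without Fzd10os, a choice made after seeing the data. Member genes that were 2-fold different numbered 0 as reported, 2 with a lower floor, the 30th percentile of signal (4.65% of members, against 3.48% of all genes measured there) and 9 with no floor (16.4% against 17.5%). Those 1.5-fold different numbered 3 as reported, 10 with the lower floor (23.3% against 13.99%), 1 with a higher floor, the 70th percentile (4.55% against 4.19%), 20 with no floor (36.4% against 32.5%), 0 with the pseudocount (against 4.09%), and 1 on MOE430B alone (6.25% against 13.2%). The 1.5-fold count was 2 on MOE430A alone (9.52% against 4.09%). It was also 2 without _x_at, _s_at and _a_at probe sets (7.41% against 8.71%). Tcf7l2 had no value there, since its measured probe set ends in _a_at. The lower floors let in dimmer probe sets.

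The ligand median, 0.166, was 0.0575 with the lower floor, -0.0257 with the higher floor, 0.00425 with no floor and 0.00238 with the pseudocount. The receptor median, 0.136, was 0.0166 with the lower floor, 0.239 with the higher floor, -0.0413 with no floor and 0.285 on MOE430A alone. The median of secreted inhibitors, -0.0252, was 0.0192 with no floor. The median of cytoplasmic components, 0.0266, was -0.0899 with the higher floor, -0.0234 with no floor, -0.108 without _x_at, _s_at and _a_at probe sets, -0.0194 on MOE430A alone and -0.317 on MOE430B alone. The nuclear factors, at 0.59, were at 0.85 with the lower floor, 0.95 with no floor and 0.33 with the pseudocount. The cause of these shifts was not tested. Of 30 measured members, 22 kept their sign in every alternative that gave a value, Lef1, Tcf7l2 and Sfrp4 among them, and 8 did not. The 8 were Axin2, Fzd3, Fzd4, Gsk3b, Wnt5a, Wnt7a, Wnt8b and Znrf3. Sfrp4 has 1 probe set in all, and most alternatives reread the 1 measured probe set of Lef1 and of Tcf7l2. A kept sign therefore says little for these 3 genes. Of the 11 alternatives, 9 gave a value for Lef1, 8 for Tcf7l2 and 10 for Sfrp4. Groups with fewer than 3 measured genes got no median under an alternative.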
